A study of Mus musculus with 22 samples.

Results

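The genes of a chemokine pathway are described here in the lungs of mice exposed to carbon nanotubes: the ligands Ccl2, Ccl7, Ccl8 and Ccl12 and the receptor Ccr2. They were chosen by name, through the RefSeq accession that the array gives for each probe, and they are 5 of the 20018 genes that could be named on the array. Each gene has 1 probe, and all 5 probes were above background. Lung RNA came from 22 female C57BL/6 mice aged 8 weeks, 1 array per mouse. The mice received a single intratracheal instillation of 40 µl. Mitsui7, a multi-walled carbon nanotube (MWCNT), was given at 18 µg (6 mice), 54 µg (5 mice) or 162 µg (6 mice), and 5 vehicle controls received the same fluid without nanotubes, 0.9% NaCl with 10% acellular bronchoalveolar lavage fluid of mice. Lungs were collected 24 hours later. Lung RNA was labelled with Cy5 and hybridised against a common reference RNA of 11 mouse cell lines labelled with Cy3, and levels are given as log2(lung/reference), where a step of 1 is a doubling.

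CCR2 is the receptor that classical monocytes use to leave the bone marrow and enter inflamed tissue, and in the lung it is known for the influx of monocytes that become macrophages. CCL2 (monocyte chemoattractant protein 1), CCL7 and CCL12 are its main ligands in the mouse, and CCL12 is found in the mouse and not in humans. CCL8 belongs to the same chemokine family, and the mouse protein is best known as a ligand of CCR8. In lung, these ligands are made by macrophages, epithelium, endothelium and fibroblasts after signals such as tumour necrosis factor and interleukin 1, whereas Ccr2 mRNA is carried mostly by the monocytes themselves. The RNA is from bulk tissue, in which fewer cells of a type and less RNA per cell cannot be told apart.

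The 4 ligand genes lie together on chromosome 11 of the mouse genome build GRCm38.p6, within 81.2 kb, in the order Ccl2 (82035577 to 82037452), Ccl7 (82045712 to 82047525), Ccl12 (82101845 to 82103399) and Ccl8 (82115185 to 82116799). Ccr2 lies on chromosome 9 (124101918 to 124109140). Of the ligands, Ccl12 and Ccl8 have an entry in the promoter table used here, and because they are neighbours the 250 bases before each of their transcription starts are shown, taken from RefSeq on GRCm38.p6, plus strand. The promoters of Ccl2 and Ccl7 are not used here. The capitals mark the TATAAA box.
Ccl12 promoter, chr11:82101595-82101844: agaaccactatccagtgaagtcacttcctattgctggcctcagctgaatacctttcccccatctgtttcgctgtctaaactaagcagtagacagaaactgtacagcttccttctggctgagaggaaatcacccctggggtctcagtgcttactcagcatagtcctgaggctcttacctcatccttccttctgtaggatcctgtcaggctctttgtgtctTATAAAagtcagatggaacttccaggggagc
Ccl8 promoter, chr11:82114935-82115184: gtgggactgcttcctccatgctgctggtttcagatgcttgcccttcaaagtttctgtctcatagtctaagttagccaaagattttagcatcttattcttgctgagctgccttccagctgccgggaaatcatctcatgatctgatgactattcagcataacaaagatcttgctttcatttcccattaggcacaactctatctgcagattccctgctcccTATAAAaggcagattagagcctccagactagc
The box begins 31 bases before the start in Ccl12 and 32 bases before it in Ccl8. Both strands were searched, and 12.4% of 32851 promoter windows of this length hold the same letters. Aligned end to end with gaps, the windows shared 166 identical bases over 280 columns (59.3%). None of the other motifs searched on both strands was found in either window: TGANTCA for AP-1 (in 6.75% of windows), TTCNNNGAA for STAT factors (7.02%) and GGGCGG for Sp1 (32.7%).

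Before the results, the arrays themselves: they lay on 7 slides, and 2 slides (3 and 6) held 6 treated lungs and no control. These slides also had the weakest arrays, with 52.1% to 62.2% of probes above background on slide 3 and 53.5% to 70.1% on slide 6, against 61.8% to 83.5% elsewhere. Markers of lung epithelium were present as the tissue label requires, 11 of 11 above background. The 22 arrays were fitted in limma with terms for dose and slide, with Benjamini-Hochberg adjustment over 55681 probes. The word called means an adjusted p no higher than 0.05 together with a 1.5-fold or greater change. The median change of all expressed probes was -0.01 on the log2 scale at each dose.

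Ccl2 and Ccl7 mRNA was higher in every treated lung than in every control lung, at all 3 doses. The fitted increase of Ccl2 was 4.04-fold at 18 µg, 6.36-fold at 54 µg and 4.63-fold at 162 µg, and that of Ccl7 was 6.74-fold, 9.13-fold and 5.55-fold. Ccl2 was called at 54 and 162 µg and Ccl7 at 18 and 162 µg. Ccl8 and Ccl12 had smaller differences that were not called, and Ccr2, the receptor, did not differ from controls in any test. The plot of levels by lung shows these values.

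**Figure D1:**
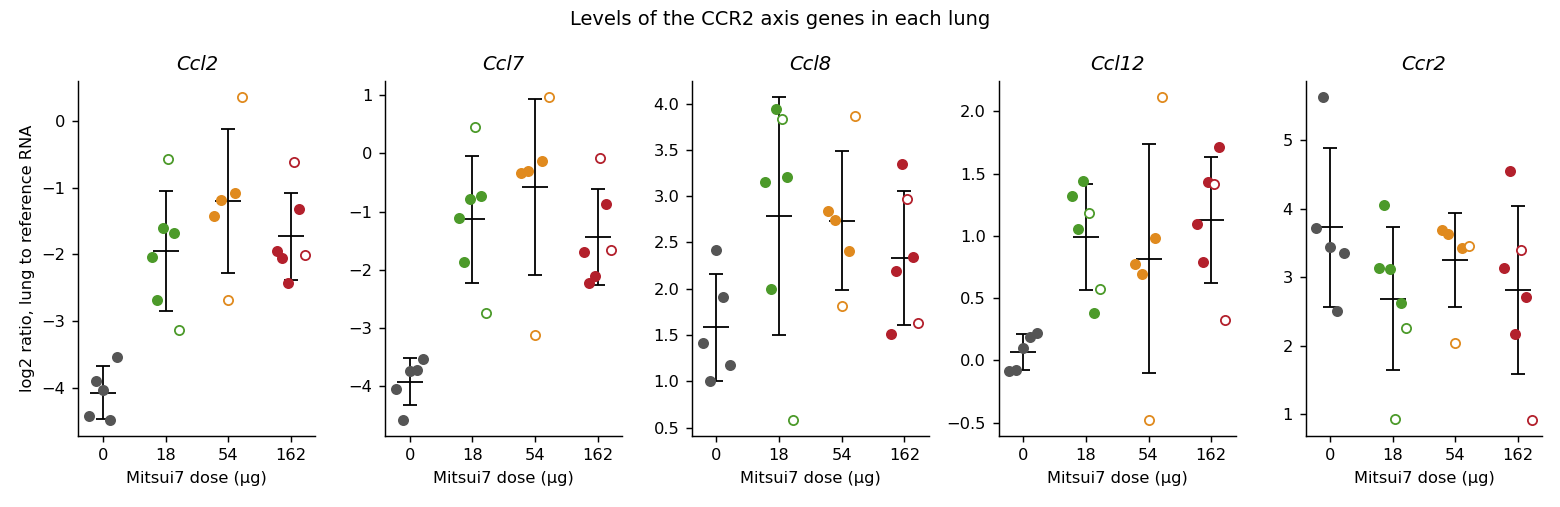
Log2 ratio of lung to reference RNA (vertical axis, a separate scale for each gene) by dose in µg for the 5 genes, 1 point per lung; bars give the mean and SD, and open points are lungs on the 2 slides without a control. All treated lungs lie above all controls for Ccl2 and Ccl7, and the highest and lowest Ccl2 values of the 18 and 54 µg groups are open points.

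Ccl2 encodes the leading attractant of classical monocytes. Its log2 ratio in the 5 control lungs was -4.48, -4.43, -4.03, -3.90 and -3.54, with a mean of -4.08 ± 0.39 (SD, n = 5). At 18 µg it ran from -3.14 to -0.56 with a median of -1.86 (mean -1.95 ± 0.90, SD, n = 6). The treated group started above the highest control, and its spread was wider than that of the controls.

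At 54 µg the 5 Ccl2 values were -2.69, -1.43, -1.18, -1.08 and 0.36 (mean -1.20 ± 1.08, SD, n = 5). At 162 µg they ran from -2.43 to -0.62 with a median of -1.98 (mean -1.73 ± 0.65, SD, n = 6). Neither group overlapped the controls. The lowest lung at 54 µg, replicate 3, and the highest, replicate 5, were both on slides without a control.

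In limma the log2 fold change of Ccl2 against controls was 2.02 at 18 µg (SE 0.49, adjusted p = 0.0502), just past the threshold for a call. It was 2.67 at 54 µg (SE 0.52, adjusted p = 0.0474) and 2.21 at 162 µg (SE 0.49, adjusted p = 0.0122). The call at 162 µg remained in all 22 fits that each left out 1 lung, with an adjusted p of 0.00087 to 0.0409. The call at 54 µg was lost in 17 of those 22 fits, remaining only without 18 µg replicates 4 or 6, 54 µg replicates 3 or 5, or 162 µg replicate 4. Its adjusted p ranged over the 22 fits from 0.000673 to 0.182 and its log2 fold change from 2.21 to 3.18. At 18 µg a call was gained in 5 of the 22 fits, without 18 µg replicate 6, 54 µg replicate 3, 54 µg replicate 5, 162 µg replicate 4 or 162 µg replicate 6, with an adjusted p over the 22 fits of 0.00579 to 0.154.

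The Ccl2 probe is spotted 10 times on each array, so the error between spots of 1 array can be given. The SD over those spots was 0.06 to 0.41 on the log2 scale, with a median of 0.12. The SD between lungs within groups, which also holds differences in labelling, array and slide, was 0.80. Over all arrays 8 spots marked as outliers by the scanner software were left out.

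Ccl7 encodes monocyte chemoattractant protein 3, which like CCL2 calls monocytes out of the bone marrow. In controls its log2 ratio was -4.57, -4.04, -3.74, -3.72 and -3.53 (mean -3.92 ± 0.41, SD, n = 5). At 18 µg it ran from -2.74 to 0.46 with a median of -0.95 (mean -1.13 ± 1.09, SD, n = 6). No treated lung of this dose fell into the control range.

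At 54 µg the Ccl7 values were -3.11, -0.33, -0.31, -0.14 and 0.97 (mean -0.58 ± 1.51, SD, n = 5). At 162 µg they ran from -2.23 to -0.07 with a median of -1.67 (mean -1.44 ± 0.82, SD, n = 6). The lung with the lowest value, 54 µg replicate 3, was 0.42 above the highest control.

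The log2 fold change of Ccl7 was 2.75 at 18 µg (SE 0.64, adjusted p = 0.0428) and 2.47 at 162 µg (SE 0.64, adjusted p = 0.0279), both called. At 54 µg it was 3.19 (SE 0.68, adjusted p = 0.0723), the largest estimate of the 15 against controls, and it was not called. With single lungs left out, the 18 µg call was lost in 15 of 22 fits (adjusted p 0.00389 to 0.136), each of the 5 controls and 18 µg replicates 1 to 5 among them, as well as 54 µg replicates 1, 2 and 4 and 162 µg replicates 1 and 5. The 162 µg call was lost in 7 of 22, without any 1 of the 5 controls or without 162 µg replicates 1 or 5 (adjusted p 0.001 to 0.0842). At 54 µg a call was gained without 18 µg replicate 4, 54 µg replicate 3 or 162 µg replicate 4 (adjusted p over the 22 fits 0.00027 to 0.259).

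Called genes were 1 of 5 at 18 µg (Ccl7), 1 of 5 at 54 µg (Ccl2) and 2 of 5 at 162 µg (Ccl2 and Ccl7), all higher than in controls. Over all expressed probes, the shares called higher were 0.442%, 0.137% and 2.46% for the rising doses. A complete separation, with every treated lung above every control, was found for 3 of 5 genes at 18 µg (Ccl2, Ccl7 and Ccl12), 2 of 5 at 54 µg (Ccl2 and Ccl7) and 3 of 5 at 162 µg (Ccl2, Ccl7 and Ccl12). Among expressed probes the same separation was seen for 1.16%, 0.938% and 2.7%. The Cy5 signal alone, without the reference channel, kept Ccl2 and Ccl7 apart from the controls in all lungs of the 3 doses, and Ccl12 in 6 of 6 lungs at 162 µg but 5 of 6 at 18 µg. In the log2 values of the authors, Ccl2 overlapped the controls in 1 lung at 18 µg, Ccl7 did so in 1 lung of each dose, and Ccl12 in 1 lung at 162 µg and none at 18 µg.

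**Figure D2:**
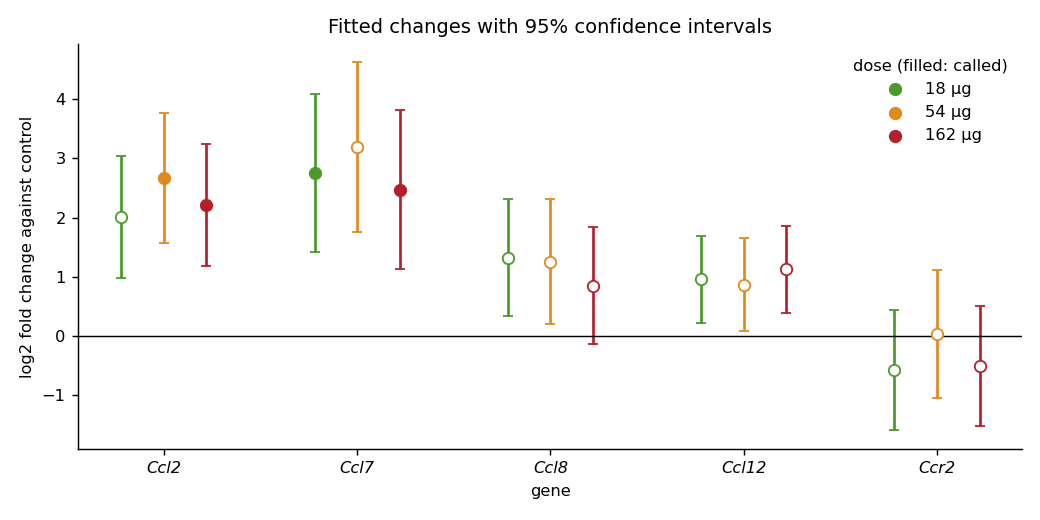
Log2 fold change against control from limma (vertical axis) for each gene and dose, with 95% confidence intervals; filled points were called. All intervals of Ccl2, Ccl7 and Ccl12 lie above 0, as do those of Ccl8 at 18 and 54 µg, and all 3 intervals of Ccr2 include 0.

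Ccl12, the mouse ligand of CCR2 that neighbours Ccl8, had the narrowest control group. Its log2 ratio in controls was -0.08, -0.08, 0.10, 0.19 and 0.22 (mean 0.07 ± 0.15, SD, n = 5). At 18 µg it ran from 0.38 to 1.44 with a median of 1.12 (mean 0.99 ± 0.42, SD, n = 6). All 6 lungs lay above the controls, the lowest by 0.16.

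At 54 µg the Ccl12 values were -0.48, 0.70, 0.77, 0.98 and 2.11 (mean 0.82 ± 0.92, SD, n = 5). At 162 µg they ran from 0.32 to 1.72 with a median of 1.25 (mean 1.13 ± 0.51, SD, n = 6). Only 54 µg replicate 3 fell below the controls, and on that array alone the lung signal of the probe was not well above background.

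The log2 fold change of Ccl12 was 0.95 at 18 µg (SE 0.35, adjusted p = 0.185), 0.86 at 54 µg (SE 0.37, adjusted p = 0.519) and 1.12 at 162 µg (SE 0.35, adjusted p = 0.0708). None was called. At 162 µg it was called without 54 µg replicate 3, 54 µg replicate 5 or 162 µg replicate 6, and over the 22 fits that left out 1 lung its adjusted p ranged from 0.00446 to 0.166. It was also called at 162 µg in the Cy5 signal alone (adjusted p = 0.0416), with slide as a random block (0.0361), with the replicate number as a block in place of slide (0.0234) and with only the 2 groups compared in the fit (0.00586). At 18 µg it was called without 54 µg replicate 5 alone (adjusted p over the 22 fits 0.0269 to 0.365). At 54 µg it was called with only the 2 groups compared in the fit (adjusted p = 0.0205).

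Ccl8 encodes monocyte chemoattractant protein 2. The control lungs had log2 ratios of 1.00, 1.18, 1.41, 1.91 and 2.42 (mean 1.58 ± 0.58, SD, n = 5). At 18 µg the values ran from 0.59 to 3.94 with a median of 3.18 (mean 2.79 ± 1.28, SD, n = 6). Of these, 4 lungs lay above all controls, and replicate 6 lay below all of them.

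At 54 µg Ccl8 values were 1.82, 2.41, 2.74, 2.84 and 3.87 (mean 2.73 ± 0.75, SD, n = 5), and 3 lungs lay above all controls. At 162 µg they ran from 1.51 to 3.34 with a median of 2.27 (mean 2.33 ± 0.72, SD, n = 6), and 2 lungs did so. The groups overlapped at every dose.

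The log2 fold change of Ccl8 was 1.32 at 18 µg (SE 0.47, adjusted p = 0.168), 1.25 at 54 µg (SE 0.50, adjusted p = 0.452) and 0.84 at 162 µg (SE 0.47, adjusted p = 0.382). None was called in the main fit. With only the 2 groups compared in the fit, Ccl8 was called at 18 µg (1.70) and at 54 µg (0.99, adjusted p = 0.0349). At 18 µg it was called without 18 µg replicate 6 or without 54 µg replicate 5, and its adjusted p over the 22 fits ranged from 0.0151 to 0.384.

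Ccr2, the receptor carried by classical monocytes, had log2 ratios of 2.51, 3.35, 3.44, 3.72 and 5.63 in controls (mean 3.73 ± 1.16, SD, n = 5). At 18 µg they ran from 0.94 to 4.05 with a median of 2.87 (mean 2.69 ± 1.05, SD, n = 6). No lung at 18 µg exceeded the highest control, and 2 lay below the lowest.

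At 54 µg Ccr2 was 2.04, 3.42, 3.47, 3.63 and 3.69 (mean 3.25 ± 0.68, SD, n = 5). At 162 µg it ran from 0.92 to 4.56 with a median of 2.93 (mean 2.82 ± 1.23, SD, n = 6). These groups lay within or below the control range, with 1 lung at 54 µg and 2 at 162 µg below all controls.

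The log2 fold change of Ccr2 was -0.59 at 18 µg (95% interval -1.60 to 0.43, adjusted p = 0.629), 0.03 at 54 µg (-1.05 to 1.12, adjusted p = 0.997) and -0.51 at 162 µg (-1.53 to 0.50, adjusted p = 0.678). These intervals leave room for a change of about 1 log2 step in either direction at 54 µg, so equal levels are not shown. Its sign at 54 µg was negative without a slide term (-0.48), in the Cy5 signal alone (-0.15) and in the authors' log2 table (-0.13).

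The Ccr2 ratio rests on a dim reference. On 20 of 22 arrays the Cy3 signal of the probe was not well above background, with a lowest value of 21, while its lung signal was well above background on all arrays (106.5 to 2129). On the array of 18 µg replicate 4 the Cy3 signal was 232, against at most 42 on the other arrays, and that lung had a log2 ratio of 0.94 with a lung signal of 230. The whole Cy3 channel of that array stood out, with a background limit of 121.9 against at most 53.2 elsewhere. Its median Cy3 signal was 120 and its median Cy5 signal 91. The same lung had the highest Ccl2 and Ccl7 ratios at 18 µg, and its Ccl8 ratio of 3.83 rests on a Cy3 signal of 136. What this does to the values was not tested. In the Cy5 signal alone the log2 fold change of Ccr2 at 18 µg was -0.06 (adjusted p = 0.895) in place of -0.59. The highest control, replicate 2, had a lung signal of 2129, and without it the Ccr2 change at 18 µg was -0.19 and at 162 µg -0.12.

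**Figure D3:**
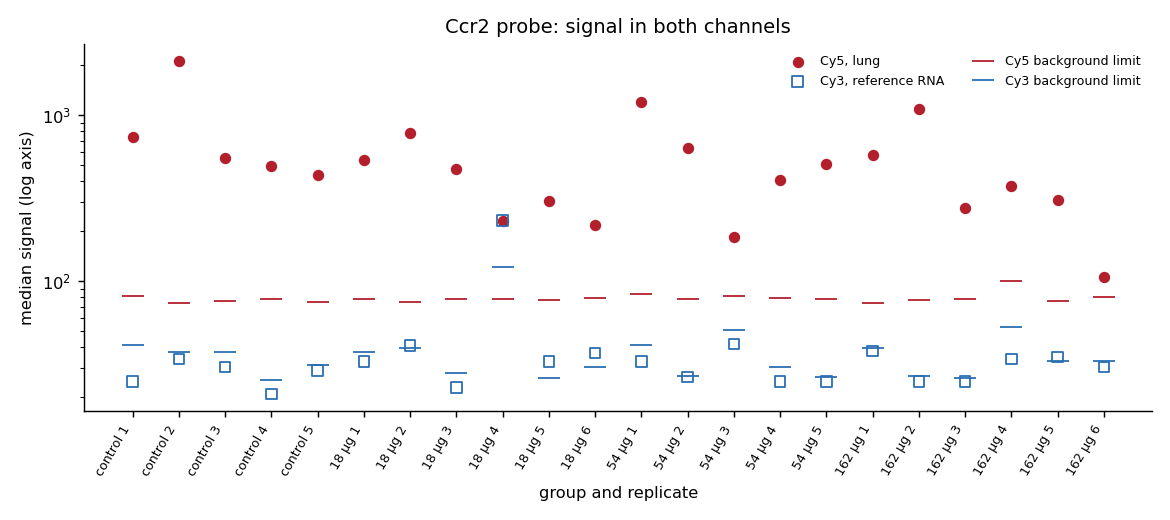
Median signal of the Ccr2 probe (vertical log axis, scanner units) in each lung for Cy5 (lung RNA, circles) and Cy3 (reference RNA, squares), with the background limit of each channel as short lines. Lung signals lie above their limit on all arrays, and reference signals lie near theirs, apart from 18 µg replicate 4, where both signals are about 230.

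Doses were also compared with each other, to ask whether the genes differed between 18, 54 and 162 µg. None of the 15 comparisons (5 genes, 3 pairs of doses) was called by limma, and none had an unadjusted p under 0.05. Adjusted p ranged from 0.676 to 0.976. Of all expressed probes, 0.0202% were called in either direction between 54 and 18 µg, 3.45% between 162 and 18 µg and 0% between 162 and 54 µg. By group mean, Ccl2 and Ccl7 were lowest in controls and highest at 54 µg. No 2 neighbouring doses in the order of means differed beyond their spread. For Ccl2 the difference of 54 µg from 18 µg was 0.65 (95% interval -0.38 to 1.68), that of 162 µg from 18 µg was 0.20 (-0.77 to 1.16), and that of 162 µg from 54 µg was -0.46 (-1.49 to 0.57). For Ccl7 these were 0.44 (-0.91 to 1.78), -0.28 (-1.54 to 0.97) and -0.72 (-2.06 to 0.62). Without 54 µg replicate 3 Ccl7 was called lower at 162 µg than at 54 µg, the 1 such case among the fits that left out 1 lung.

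Lungs on the same slide share hybridisation and scanning, so each treated lung was also set against the control of its own slide, on the 5 slides that held one. Ccl2 was higher than the slide's control in 11 of 11 such pairs, on the log2 scale by 1.21 to 2.88 (18 µg), 2.46 to 3.00 (54 µg) and 1.94 to 2.22 (162 µg). Ccl7 was higher in 11 of 11, by 2.71 to 2.93, 3.40 to 3.71 and 1.51 to 2.88. Ccl12 was higher in 11 of 11 pairs (0.16 to 1.495) and Ccl8 in 10 of 11. Ccr2 was higher in 4 and lower in 7, from -2.49 to 1.12. These are differences of single arrays, and no test was made of them. The 11 pairs share the controls of 5 slides, so they are not independent. For Ccl2 and Ccl7 the direction followed from the complete separation given above, and so it did for Ccl12 on these slides. These counts therefore add no support of their own.

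**Figure D4:**
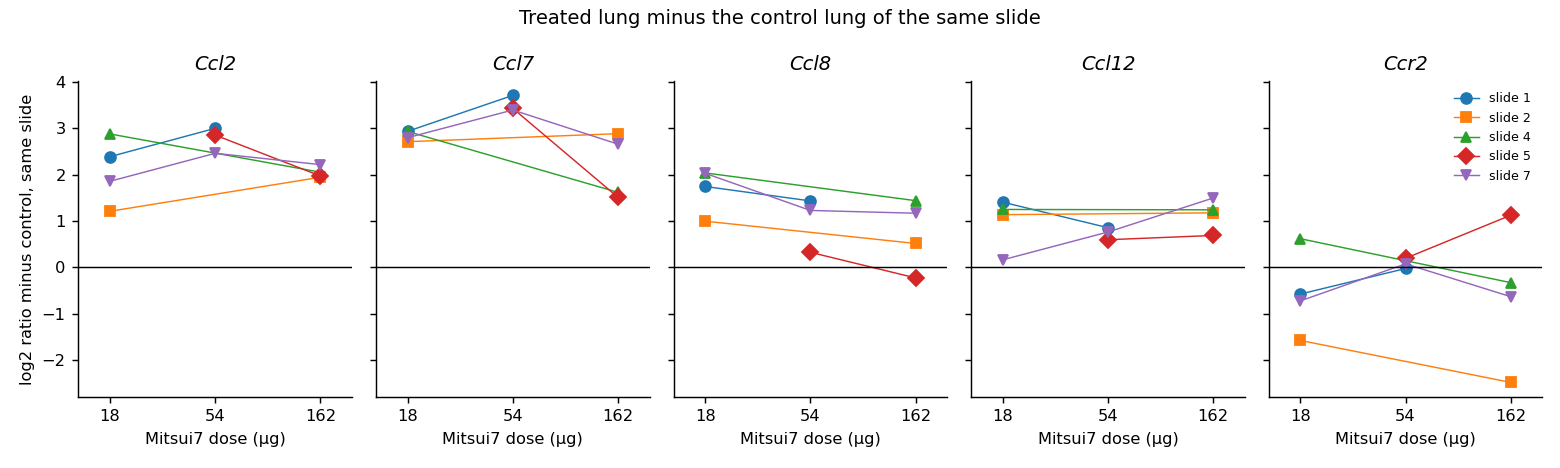
Log2 ratio of each treated lung minus that of the control lung on the same slide (vertical axis) by dose in µg, 1 line per slide, for the 5 slides with a control. All points of Ccl2, Ccl7 and Ccl12 lie above 0, 1 point of Ccl8 lies below it, and Ccr2 falls on both sides.

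The 6 treated lungs on slides without a control varied most. On slide 3, Ccl2 was -0.56 in 18 µg replicate 4, -2.69 in 54 µg replicate 3 and -0.62 in 162 µg replicate 4. On slide 6 it was -3.14 in 18 µg replicate 6, 0.36 in 54 µg replicate 5 and -2.01 in 162 µg replicate 6. The middle dose was thus the lowest of its slide in one case and the highest in the other. Within doses the SD of Ccl2 was 0.42 over the 11 treated lungs on slides with a control and 1.72 over these 6, and for Ccl7 it was 0.49 and 2.21. These slides also had the lowest share of probes above background, and the part of signal strength in the spread was not tested.

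Leaving out both slides, a choice made after seeing the data, left 16 arrays and changed which genes were called. Ccl2 and Ccl7 were then called at all 3 doses, Ccl2 with log2 fold changes of 2.08, 2.74 and 2.09 (adjusted p = 0.000497, 8.24e-05 and 6.8e-05) and Ccl7 with 2.78, 3.53 and 2.19 (adjusted p = 5.83e-05, 6.8e-06 and 5.46e-05). Ccl8 was called at 18 µg (1.56, adjusted p = 0.00268) and at 162 µg (0.77, adjusted p = 0.0387). Ccl12 was called at 18 µg (0.93, adjusted p = 0.0266) and at 162 µg (1.19, adjusted p = 0.00221). The estimates moved little, and Ccr2 was called at none of the doses.

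Over all 22 lungs the ligands varied together within doses, with the largest deviations of Ccl2 on the 2 slides without a control. After each group's mean was taken off, Pearson's r of Ccl2 with Ccl7 over 22 lungs was 0.92 (permutation p = 1e-05, the smallest that 100000 permutations can give, adjusted over 10 pairs 0.0001), and Spearman's rho was 0.87 (permutation p = 1e-05). Without the 2 lungs farthest from the median of Ccl2, r was 0.90. From its group mean, Ccl2 deviated by -1.49 to 1.39 on slide 3 and by -1.19 to 1.56 on slide 6. On the slides with a control it deviated by -0.74 to 0.54. The 2 lungs left out were 54 µg replicates 3 and 5, and r without slides 3 and 6 was not calculated. How far the relations rest on these slides was therefore not tested. The permutations exchanged lungs of different slides, so they do not allow for lungs that share a slide. Of 14976 expressed genes with a value on all arrays, Ccl7 was the one most like Ccl2. Ccl12 ranked 120 and Ccl8 168.

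Pearson's r of Ccl2 with Ccl8 was 0.64 (permutation p = 0.00138, adjusted 0.00276) and Spearman's rho 0.56 (permutation p = 0.00734, adjusted 0.0134), with an r of 0.56 without the 2 farthest lungs. For Ccl2 with Ccl12, r was 0.67 (permutation p = 0.00089, adjusted 0.00222) and rho 0.56 (permutation p = 0.00802, adjusted 0.0134), but r was 0.37 without those lungs, so that relation rests partly on them. Ccl8 and Ccl12, the neighbours whose promoters are printed above, had an r of 0.59 (permutation p = 0.00491, adjusted 0.00818), a rho of 0.65 (permutation p = 0.00129, adjusted 0.00645) and an r of 0.59 without the 2 lungs farthest in Ccl8. Ccl2 with Ccr2 gave an r of 0.05 (permutation p = 0.823, adjusted 0.85) and a rho of 0.15 (permutation p = 0.513, adjusted 0.708), and without the 2 farthest lungs r was -0.12. With slide taken off as well, r was 0.95 for Ccl2 with Ccl7, 0.87 with Ccl8, 0.81 with Ccl12 and 0.30 with Ccr2. Without the 2 farthest lungs these were 0.89, 0.78, 0.61 and 0.12. The remaining Ccl2 deviations ran from -1.77 to 1.01 on slide 3 and from -1.26 to 1.58 on slide 6. On the other slides they ran from -0.45 to 0.63, so taking slide off does not remove the weight of slides 3 and 6.

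**Figure D5:**
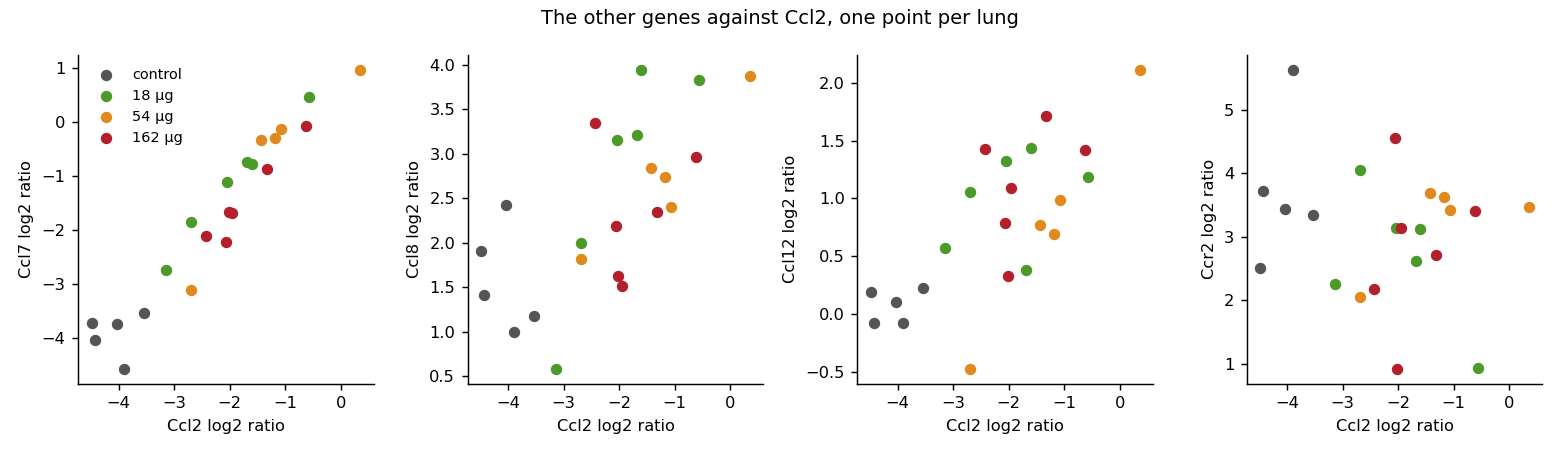
Log2 ratio of Ccl7, Ccl8, Ccl12 and Ccr2 (vertical axes) against that of Ccl2 (horizontal axis), 1 point per lung, coloured by dose. Ccl7 follows Ccl2 closely, whereas Ccl8 and Ccl12 scatter more and Ccr2 shows no trend.

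The genes outside the pathway most like Ccl2 by the same measure were Aldh1a3, a retinaldehyde dehydrogenase (r = 0.87), Ccl4, a macrophage inflammatory protein gene (0.86), Fcgr2b, the inhibitory Fc receptor (0.85), the cytokine gene Il6 (0.83) and Rspo3, an amplifier of Wnt signalling (0.83). Aldh1a3 was called at 54 µg (log2 fold change 3.84, SE 0.71, adjusted p = 0.0359) and 162 µg (2.99, SE 0.67, adjusted p = 0.0129). Il6 was called at 162 µg. Ccl4, Fcgr2b and Rspo3 were called at none of the doses.

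The other CC chemokines on the array were 14, of which 11 were expressed. Called higher were 1 at 18 µg, 1 at 54 µg and 3 at 162 µg, and 1 was called lower at 162 µg. The median log2 fold change over the 11 was 0.73, 0.53 and 0.87, beside -0.01 over all expressed probes, and 1.32, 1.25 and 1.12 over the 5 genes of the CCR2 axis. Ccl17, a ligand of CCR4, was called at all 3 doses (1.75, 1.78 and 1.46, adjusted p = 0.0172, 0.0367 and 0.0105). At 162 µg Ccl3, a ligand of CCR1, rose by 1.43 (adjusted p = 0.00942) and Ccl19, a ligand of CCR7, by 0.90 (adjusted p = 0.000929). Ccl5, a chemokine made by T cells, fell by 0.95 (adjusted p = 0.0219). Large estimates were not confined to the CCR2 ligands, although these 2 genes were not called. Ccl24 had 3.79, 3.62 and 1.55 for the rising doses (adjusted p = 0.0585, 0.213 and 0.452), with 6 of 6, 4 of 5 and 5 of 6 lungs above all controls. Ccl11 had 2.01, 2.69 and 2.12 (adjusted p = 0.118, 0.136 and 0.057), with 5 of 6, 5 of 5 and 6 of 6 lungs above them.

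Of 12 expressed CC chemokine receptors and scavengers other than Ccr2, limma called 0 at each dose, with an unadjusted p under 0.05 in 1, 2 and 6. Of 16 genes of CCR2 signalling, such as G proteins, arrestins and kinases, it also called 0, with an unadjusted p under 0.05 in 1, 2 and 2. The share of all expressed probes with an unadjusted p under 0.05 is not given here. Such counts, here and for the lists below, can therefore not be read as a response of the list. Over the signalling genes the median change was close to 0, at 0.12, -0.04 and -0.02 for the rising doses.

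Upstream, 17 of 18 cytokines, receptors and factors of the pathways that act on Ccl2 transcription were expressed, their inhibitor Nfkbia among them. None was called at 18 or 54 µg by limma, where 3 and 8 had an unadjusted p under 0.05, and 2 were called at 162 µg. Il6 was not well above background in any control lung and well above it in all 6 lungs at 162 µg, where it was at least 8.38-fold higher (adjusted p = 0.00153). Such a bound compares the mean Cy5 level of the treated lungs with that of the controls. Each control is taken at its own signal or at the lowest signal that counts as well above background, whichever is higher. The adjusted p beside a bound is that of the limma test of the log2 ratio. Nfkbia, the NF-kB inhibitor that NF-kB itself induces, rose by 0.99 (adjusted p = 0.0483). Tnf differed by 0.49, 0.38 and 0.39 at the 3 doses (adjusted p = 0.0741, 0.401 and 0.0987).

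Among 9 genes for monocyte growth factors and their receptors, 0 were called at 18 or 54 µg, with an unadjusted p under 0.05 in 1 and 3, and 2 at 162 µg. Csf3, the granulocyte factor, was not well above background in any control lung and was at least 1.44-fold higher at 162 µg (adjusted p = 0.0055), with 4 of 6 lungs well above background. Il34, a ligand of the CSF1 receptor, rose by 0.67 (adjusted p = 0.00833). Csf1r, the gene of that receptor, which monocytes and macrophages carry, had a log2 fold change of -0.57 at 162 µg (adjusted p = 0.0111), under the 1.5-fold limit of a call. Of its lungs at 162 µg, 6 of 6 lay below all controls, and the share of expressed probes with such a separation was not counted. Csf1, the main ligand of that receptor, also stayed under the 1.5-fold limit, at 0.53, 0.54 and 0.48 for the rising doses (adjusted p = 0.036, 0.107 and 0.021).

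Markers of the cells that carry CCR2 are given beside these results. Of 12 classical monocyte markers 10 were measured and expressed, and 1 was called: Ly6c1, which endothelium also expresses, rose by 1.35 at 162 µg (adjusted p = 0.000565). The mean of the 10 markers relative to controls ran from -0.34 to 0.67 in controls, and the treated groups (-0.26 to 0.15, -0.62 to 0.34 and -0.19 to 0.41 for the rising doses) overlapped that range. Its upper end was 1 lung, control replicate 2, which also had the highest Ccr2. The other 4 controls ran from -0.34 to -0.06, and 3 of 6, 4 of 5 and 5 of 6 treated lungs lay above them for the rising doses. Of 8 patrolling monocyte markers 2 were called lower at 162 µg, Spn (-0.78, adjusted p = 0.00264) and Itgal (-0.78, adjusted p = 0.00545), and the mean of the list ran from -0.33 to 0.26 in controls and from -0.73 to -0.07 at 162 µg.

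Among other cells, the mean of 10 alveolar macrophage markers ran from -0.21 to 0.22 in controls and from -0.003 to 0.88 at 162 µg, with 1 of 10 called at 18 µg, Chil3 (1.73, adjusted p = 0.0454), 0 at 54 µg and 1 at 162 µg, Marco (1.51, adjusted p = 0.00457). Siglecf, a surface lectin of alveolar macrophages and eosinophils, had estimates of -0.61, -0.44 and -0.64 for the rising doses (adjusted p = 0.307, 0.771 and 0.231). The mean of 10 neutrophil markers ran from -0.84 to 1.70 in controls and from -0.65 to 1.92 at 162 µg. The upper end in controls was again replicate 2, the other 4 ran from -0.84 to -0.23, and 5 of 6 lungs at 162 µg lay above those 4. Of these markers limma called 0, with an unadjusted p under 0.05 in 2, 0 and 2. At 162 µg the B cell marker Ms4a1 was lower (-0.89, adjusted p = 0.0125), with a list mean of -0.92 to -0.10 against -0.21 to 0.32 in controls. Lck was the 1 called of 8 T cell markers (-0.83, adjusted p = 0.00468), and the mean of that list was -0.39 to -0.03 against -0.29 to 0.32. Col3a1 was the 1 called of 6 fibroblast markers (-0.96, adjusted p = 0.0292), with a mean of -0.62 to 0.07 against -0.28 to 0.19. Of 11 lung epithelial markers 1 was called, Cyp2f2 of club cells (-1.004, adjusted p = 0.00507), and the mean of the 11 was -0.37 to 0.24 against -0.25 to 0.11. Of 6 expressed eosinophil markers 1 was called, Ear6 (0.81, adjusted p = 0.0401), and their mean was -0.29 to 0.50 against -0.22 to 0.24. Of 6 endothelial markers 1 was called, Kdr at 18 µg (0.65, adjusted p = 0.0478), where the mean was -0.31 to 0.51 against -0.44 to 0.45. All 6 ranges overlapped those of the controls, although 5 of 6 lungs at 162 µg lay below all controls in the B cell mean and 5 of 6 in the fibroblast mean. For the markers called lower, the share called lower over all expressed probes is not given here. The part of these cell types in the levels of the 5 genes was not tested.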

How the data were processed

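The authors deposited, for each array, median pixel intensity values of both channels of every spot, without background subtraction or normalization, and per the file headers the scanner software was Feature Extraction 10.7.3.1. A second deposited table by the authors holds log2 ratios, positively correlated with the values used here (r = 0.834 to 0.998 per array), whose normalization and centring are not given in the sources used here. It served as an alternative.

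Log2(Cy5/Cy3) was normalized within each array by loess (span 0.3), without outlier spots, and the median over spots of a probe was taken. Expressed probes (39549 of 55681) had a Cy5 signal above the trimmed mean (5%) plus 3 trimmed SDs of 308 negative control spots, in 80% or more of the lungs of some group. Computations used R 4.3.3 with limma 3.58.1, dose and slide fixed, with 12 residual degrees of freedom, and were tested on simulated data. The study's methods name MAANOVA with permutation, and limma's moderated test was used in its place. Intervals and precision are limited by the number of arrays. Nothing says more of the replicates than 1 mouse per array.

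The genes, gene lists and tests were chosen with earlier results of these data known. Genes named were the 5 members, the 3 largest called genes per direction of each pathway list, 2 called markers per direction of each cell type list, and the 5 genes most like Ccl2. Ccl11, Ccl24, Tnf, Csf1, Csf1r and Siglecf, which were not called against controls, were named outside these rules. Ly6c2, Cd68 and Ly6g could not be matched to a probe. Alternatives were other background corrections, normalizations, slide terms, filters and adjustments, the replicate number as a block, and leaving out each lung. 1 further called cell type marker is not reported here.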

Additional observations from a re-analysis of the deposited data

Results flagged for a closer look

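The values of the 5 genes were examined for single lungs far from their group, in 20 groups (5 genes, 4 doses). In 1 of the 20 the gap of an extreme lung to its nearest neighbour, as a share of the range of the group, was past Dixon's 95% critical value, and chance gives about 1 in 20. It was Ccr2 in 54 µg replicate 3, with a log2 ratio of 2.04 where the next lung had 3.42, a gap of 0.838 of the range. The lung signal of that probe was 184 on this array, and the array had 58.1% of probes above background.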

How the results depend on the processing

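Against controls, the changes of Ccl2, Ccl7, Ccl8 and Ccl12 were above 0 in all 35 other fits, the one without 2 slides aside, at each dose, and those of Ccr2 were below 0 in all 35 at 18 and 162 µg. Calls depended more on the processing. Ccl2 at 162 µg was called in 33 of 35 fits, Ccl7 in 24, Ccl7 at 18 µg in 15 and Ccl2 at 54 µg in 12. Of the 5 genes, 1 was called at 18 µg, 1 at 54 µg and 2 at 162 µg. These counts became 0, 0 and 0 with median centring or without normalization, 0, 0 and 1 in the authors' log2 table and with quantile normalization, and 0 at 18 and 54 µg with normexp correction. With outlier spots kept, 0 were called at 54 µg. They became 2 and 2 at 18 and 54 µg in the Cy5 signal alone, without a slide term and with slide as a random block, 2 at 18 µg with p adjusted over expressed probes, 3, 4 and 3 with only the compared groups fitted, and 4, 2 and 4 without the 2 slides that hold no control. At 162 µg they were 3 in the Cy5 signal alone and with slide as a random block, Ccl12 being the gene added, which was called in 7 of the 35 fits. The cause was not tested. With single lungs left out, 18 µg counts ranged from 0 to 4, 54 µg counts from 0 to 2 and 162 µg counts from 1 to 3, and that of 162 µg against 54 µg from 0 to 1.

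The change of Ccr2 at 54 µg, 0.03, turned negative in the Cy5 signal alone (-0.15), in the authors' table (-0.13), with normexp correction (-0.0612), without a slide term (-0.48), with slide as a random block (-0.27) and without the 2 slides (-0.12), and ranged from -0.23 to 0.32 with single lungs left out. Without normalization the median change of all expressed probes was -0.30, 0.13 and -0.14 for the rising doses, and with median centring it was -0.14, -0.03 and -0.11.

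Replicate numbers were not taken to pair the lungs, since not every same-numbered pair deviated together with r above 0.1. Of 31 such pairs 20 did (median r 0.17), 11 of the 31 sharing a slide, and of 150 other pairs 40 did (median r -0.06). Pairs of lungs on the same slide had an r of -0.25 to 0.62, so they would not meet this rule either. The rule can therefore not decide whether replicate numbers pair the lungs. With the replicate number as a block in place of slide, 2 genes were called at 18 µg, 2 at 54 µg and 3 at 162 µg, and Ccr2 at 54 µg was -0.48. The reference channel of Ccr2 was near background, and the slides without controls had the lowest shares of probes above background. What either does to the values was not tested.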
